A study of Mus musculus with 15 samples.

Results

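Exc_20 is 1 of the 26 clusters into which the authors divided the excitatory neurons of the mouse prefrontal cortex (PFC). Its members were the cells with that cluster name in the deposited table of cells, and they numbered 670 of 35360 retained cells, 175 of them from adult mice and 495 from mice at postnatal day 21 (P21). The adult cells came from 12 libraries of C57BL/6N males labelled as 8 to 10 weeks old (P60 in the study's terms). Each of these libraries pooled 2 mice, and there were 2 libraries for saline and 2 for cocaine self-administration (IVSA, in which a lever press delivers an intravenous infusion) at each of 3 phases. The phases were the end of maintenance, 48 h of withdrawal and 15 days of withdrawal. All of these mice, controls included, had been through food training and jugular catheterization, and the controls received saline in place of cocaine. The 3 libraries at P21 came from mice of 3 weeks without this procedure. They came from 4 mice in all, and which mice entered which library is not given in the sources used here, so these libraries may share animals. P-values measure the spread between libraries, which may in part be technical, and those that count the P21 libraries as 3 samples may be too small. Age, the IVSA procedure and the preparation of the libraries cannot be told apart in the comparison of P21 with P60. The tissue field of the labels says NAc, while the titles and the study name the PFC.

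Excitatory neurons of deep cortical layers are divided by the targets of their axons. Corticothalamic neurons of layer 6 send axons to the thalamus and express the transcription factors Foxp2, Tbr1 and Tle4, whereas layer 6b, the remnant of the embryonic subplate, holds neurons marked by Cplx3, Nxph4 and Ctgf. In the PFC, corticothalamic neurons are part of the loop between the cortex and the mediodorsal thalamus.

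The adult cells of Exc_20 were spread unevenly over libraries. There were 11 cells in libraries 4, 5 and 12, 13 in library 8, 14 in library 7, 22 in library 9, 34 in library 10 and 53 in library 11. Libraries 1, 2, 3 and 6 held 0, 4, 1 and 1 cells and were left out of the tests on genes, so that the maintenance phase kept only library 4. The P21 libraries held 199, 129 and 167 cells. The cells had a median of 12231 unique molecular identifiers (UMIs, which count mRNA molecules), 3743 genes and 2.07% mitochondrial UMIs at P60, against 7683 UMIs, 2953 genes and 3.39% at P21. Summed over cells, the libraries kept held 101865 to 582941 UMIs at P60 and 878671 to 1709398 at P21. All 175 cells of P60 were also classed as excitatory by the authors, whereas 23 of the 495 cells of P21 carried another class, among them 9 endothelial and 9 microglial. No cell barcode of Exc_20 was shared between libraries, and pairs of libraries shared at most 27 barcodes over all cells.

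The name excitatory fitted the markers. Slc17a7, the vesicular glutamate transporter of cortical excitatory neurons, was at 438 CPM (UMIs of a gene with the total of each sum scaled to the same number) over the P60 cells and ranked 11 of the 26 clusters. It gave a UMI in 96.0% of the P60 cells of Exc_20 (median of 12231 UMIs), against 9.32% of P60 oligodendrocytes, which should lack it (median of 3626 UMIs). Gad1, an enzyme of GABA synthesis, was at 3.60 CPM, a low level although it ranked 1 of the 26, and its libraries reached at most 8.58 CPM. Since the clusters were made from these genes, levels by cluster are a description without a test.

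Among layer markers, Exc_20 carried those of layer 6 corticothalamic neurons. The 12 genes of this list summed to 3105.7 CPM at P60, which ranked 1 of 26, just above 3077.0 CPM in Exc_19, while the median over clusters was 118 CPM. Rprm alone made up 2130.5 CPM of this sum, and it was at 2192.4 CPM in Exc_19. Foxp2, Syt6 and Lsp1 were highest in Exc_20. Tle4, Tbr1 and Hs3st4, at 141, 130 and 188 CPM there, were higher in Exc_18, at 194, 152 and 203 CPM. At P21 the sum was 3263.1 CPM and ranked 3. Of the 12 genes 11 were detected, and Ctxn3 was at 0. The markers of layers 2 and 3 summed to 26.2 CPM (rank 22), those of layer 6b to 19 CPM (rank 8) and those of near-projecting neurons to 17.0 CPM (rank 7) at P60. Those of layer 5 pyramidal tract neurons ranked higher, at 197 CPM (rank 4) at P60 and 291 CPM (rank 3) at P21. Exc_26 had 690 CPM of this list at P60, and the median over clusters was 55.4 CPM. Markers of intratelencephalic neurons summed to 74.0 CPM for layer 5 (rank 17) and 15.4 CPM for layer 6 (rank 9) at P60. The layer 6b sum was 227 CPM at P21, where it ranked 1. The plot of marker genes over clusters shows the same 3 columns, Exc_18, Exc_19 and Exc_20, standing out for Foxp2, Syt6, Rprm, Hs3st4 and Sla.

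**Figure D1:**
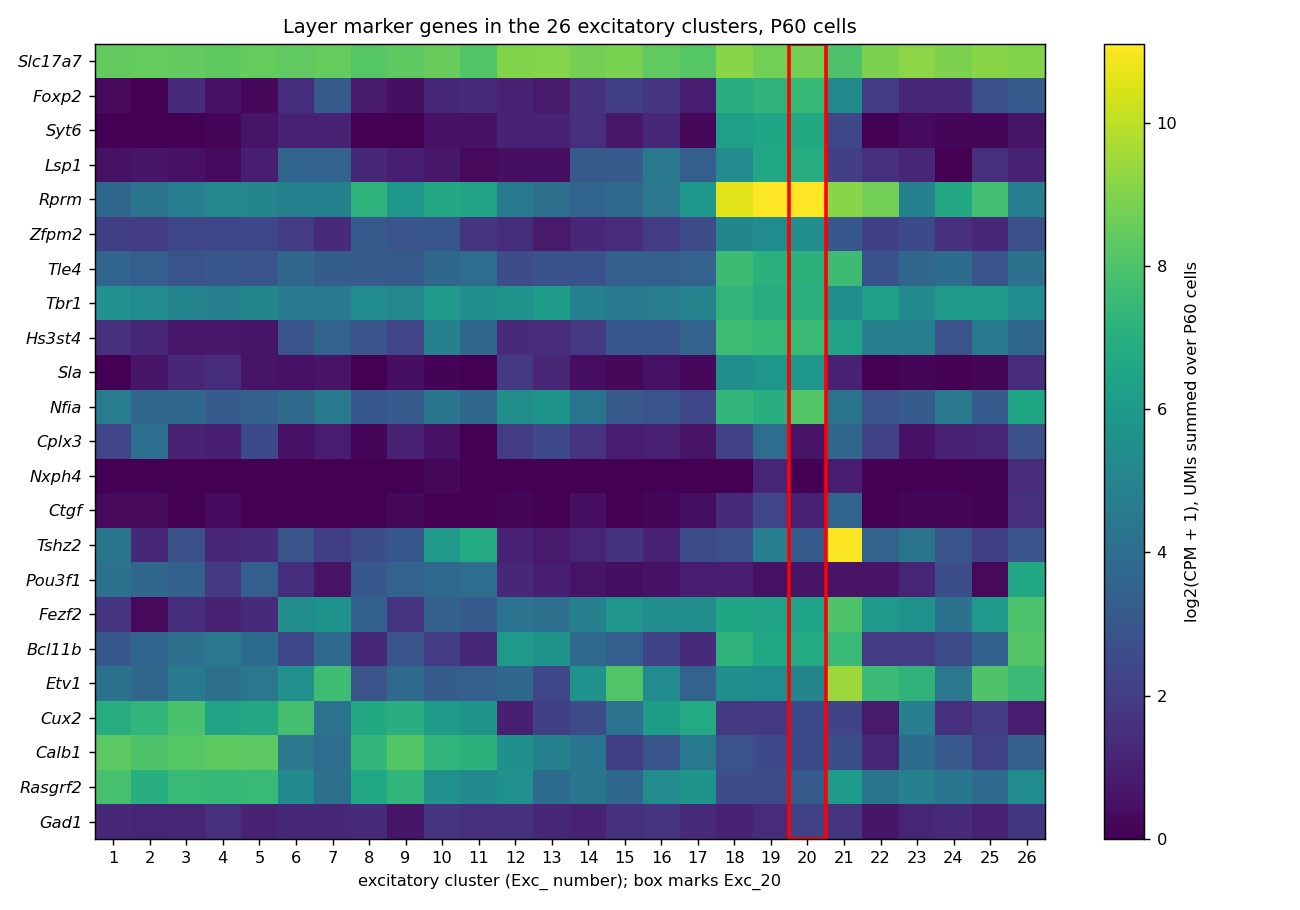
Level of 23 marker genes (rows) in the 26 excitatory clusters (columns) over the P60 cells, as log2(CPM + 1) by colour, with Exc_20 boxed. Foxp2 at 170 CPM, Syt6 at 106 CPM and Lsp1 at 118 CPM were highest in Exc_20, and Cplx3 was at 0.514 CPM there.

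Foxp2 (ENSMUSG00000029563, chromosome 6, 14851349 to 15391977 of NCBIM37, plus strand) was at 116 to 245 CPM over the 8 adult libraries with a median of 171 CPM, and at 143, 209 and 224 CPM over the P21 libraries. The other excitatory neurons of the same libraries were at 9.66 to 17.1 CPM and 25 to 35.2 CPM, so the groups did not overlap at either age. Syt6 (ENSMUSG00000027849, chromosome 3, 103379154 to 103449490, plus strand), a synaptotagmin, was at 58.9 to 167 CPM at P60 and 148 to 162 CPM at P21. Its level in the other excitatory neurons did not exceed 23.8 CPM. Rprm (ENSMUSG00000075334, chromosome 2, 53936504 to 53937963, minus strand), which encodes Reprimo, a mediator of cell cycle arrest, reached 1570.7 to 2430.4 CPM at P60 against 173 to 322 CPM in the others.

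Over all 11 libraries, the largest ratio to the other excitatory neurons among genes of at least 20 CPM was that of Lsp1, an actin-binding protein first known from leukocytes, at 11. It was followed by Syt6 (10.7), Sebox (9.62), Foxp2 (9.53), the transcription factor Nfia (9.36), Thsd7b (9.11), Sla (8.20) and Sema5b (7.67), each higher in Exc_20 in 11 of 11 libraries. The neuropeptide genes Nts and Calca had ratios of 6.81 and 6.33 but were higher in 8 of 11 libraries. At the other end, C1ql3, a secreted synaptic organizer, was 30.8-fold lower in Exc_20, at 18 CPM on average against 553 CPM in the others. Tcap was at 0.415 against 42.3 CPM and Penk, the precursor of enkephalins, at 0.575 against 29.2 CPM on average, and no fold is given for these genes because they had few UMIs in Exc_20. Each of the 3 was lower in Exc_20 in all 11 libraries.

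Exc_19 and Exc_18 were the nearest clusters, with Pearson correlations of 0.9931 and 0.9887 to Exc_20 over all genes at P60 (log2 of CPM + 1). The genes are not independent and these values only rank clusters. Both share the corticothalamic markers. Of 5843 genes of at least 20 CPM in Exc_20 at P60, 33 were more than 2-fold above both nearest clusters. At P21 there were 33 as well, 21 of them in common with P60. Genes low in Exc_20 could not enter by this limit. With the limit of 20 CPM set on the higher of the 2 nearest clusters instead, 2 genes were more than 2-fold below both at P60 and 0 at P21.

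Among the 33 genes above both at P60 was Bhlhe41, a basic helix-loop-helix repressor of the circadian clock. It was at 81.2 CPM in Exc_20, 10.9 CPM in Exc_19 and 20.7 CPM in Exc_18 at P60. Kdm6b, a histone H3 lysine 27 demethylase, was at 28.3, 3.37 and 5.86 CPM. Mll2, a histone H3 lysine 4 methyltransferase, was at 109, 19.3 and 39.1 CPM. The 33 also held Spry2 (141, 25.4 and 47.7 CPM), an inhibitor of receptor tyrosine kinase signalling, and Gnb1 (1111.8, 316 and 471 CPM), a G protein subunit. Actb, cytoplasmic actin, was at 5302.5 CPM against 2471.4 and 2184.8 CPM. A UMI of Mll2 was found in 69.7% of the P60 cells of Exc_20 and 17.9% of those of Exc_19, at medians of 12231 and 12401 UMIs. After thinning every cell to 3000 UMIs the shares were 28.6% and 5.37%, and they were 5.45% in oligodendrocytes.

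This set of genes was not particular to Exc_20. The genes were chosen as high in Exc_20 and low in Exc_19 and Exc_18 at P60, so the values of these 3 clusters at P60 follow from the choice and are no result. For 29 of the 33 genes, Exc_3, Exc_6 and Exc_20 were all among the 4 highest of the 26 clusters at P60. The median deviation of the 33 genes from the mean of the clusters, on the log2 scale, was 1.38 in Exc_6, 1.28 in Exc_20 and 1.05 in Exc_3, and then dropped to 0.59 in Exc_7 and 0.24 in Exc_25, with -0.57 in Exc_19. At P21 the values were 1.24, 0.98, 0.77 and 0.42 in the same order, against -0.54 in Exc_19. Exc_3 and Exc_6 carried Cux2, a transcription factor of upper layers, at 237 and 228 CPM, against 4.62 CPM in Exc_20. The median UMIs at P60 were 12231 in Exc_20, 10741 in Exc_3 and 15077 in Exc_6, against 12401 in Exc_19. Of the 33 genes, 11 have another gene within 300 bases of their end in the annotation of NCBIM37. Slc24a5 and Myef2, for example, end against each other on opposite strands. Whether reads of such neighbours, on the same or opposite strands, were told apart was not tested.

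**Figure D2:**
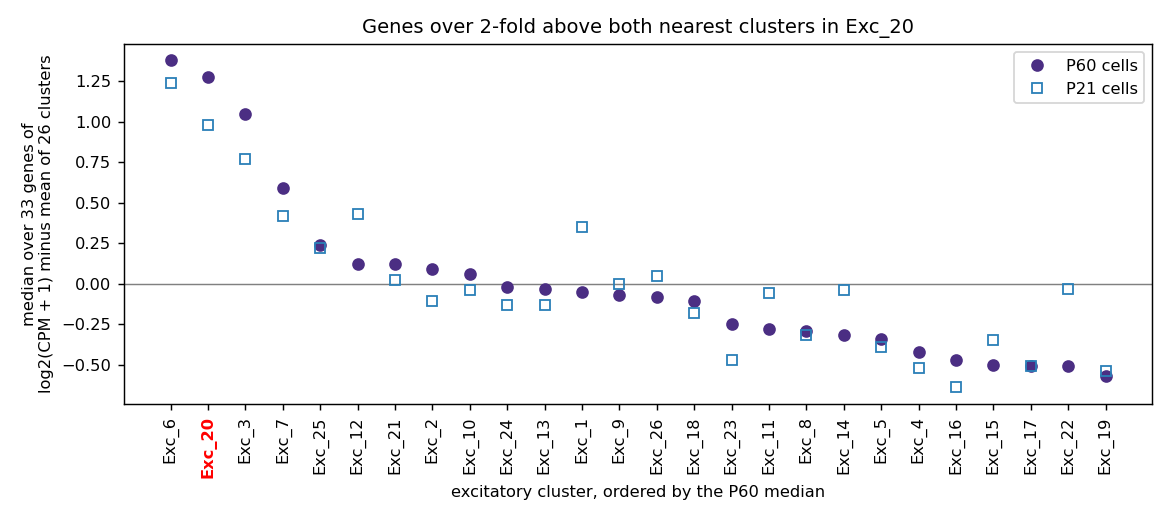
Median over the 33 genes more than 2-fold above both nearest clusters in Exc_20 at P60, of log2(CPM + 1) minus the mean of the 26 clusters, for each cluster at P60 (filled circles) and P21 (open squares). Exc_6 and Exc_3 lie beside Exc_20 at both ages (1.38, 1.05 and 1.28 at P60), while the values of Exc_20 and of its nearest clusters at P60, such as -0.57 in Exc_19, follow from the choice of genes.

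The share of Exc_20 among excitatory neurons was larger at P21. It was 8.02% (95% exact binomial interval 6.98% to 9.16%), 8.33% (7.0% to 9.82%) and 8.77% (7.54% to 10.1%) in the P21 libraries, whereas the saline libraries of P60 ranged from 0.158% to 2.08% with a median of 1.25%. All P21 libraries lay above all P60 libraries. The difference of means was 7.19 percentage points (8.37 ± 0.377, SD, n = 3, against 1.19 ± 0.663, n = 6; two-sided exact permutation test, p = 0.0119, the smallest that the 84 regroupings can give). Without any 1 of the P21 libraries it was 6.99 to 7.36 points (two-sided exact permutation test, p = 0.0357, the smallest that 28 regroupings can give). Intervals cover counting error only. The 2 nearest clusters together also made up more of the excitatory neurons at P21, 13.8 ± 0.346% against 7.52 ± 2.77%, and Exc_20 made up 37.8% of these 3 clusters at P21 against 13.5% in P60 saline. Cluster names at P21 rest on correlations that the authors computed between the ages, and the part of this naming in the shares was not tested.

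Cocaine and saline libraries overlapped. The share was 0% (0 of 570 neurons, allowing up to 0.645% by the exact interval) and 1.59% with cocaine and 1.25% and 0.158% with saline at maintenance. It was 0.129% and 1.42% with cocaine and 1.61% and 1.25% with saline at 48 h, and 0.84% and 1.57% with cocaine and 2.08% and 0.79% with saline at 15 days. The difference of cocaine from saline within phases was -0.263 percentage points (two-sided exact permutation test within phases, p = 0.537, with 0.00926 the smallest that 216 regroupings can give). No difference was detected, and without library 1 its value was 0.00126 points.

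**Figure D3:**
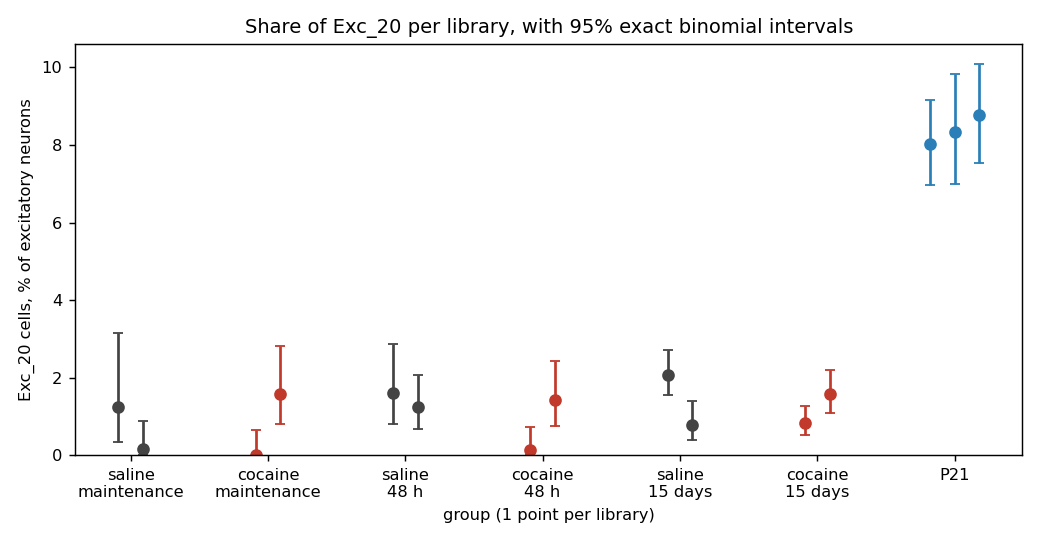
Cells of Exc_20 as a percentage of the excitatory neurons of each library (points), with 95% exact binomial intervals, by group; 2 libraries for each P60 group and 3 for P21. The P21 libraries lie between 8.02% and 8.77%, and the 12 P60 libraries between 0% and 2.08% with saline and cocaine overlapping.

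The P21 cells of Exc_20 held a group with layer 6b genes that was not detected among the P60 cells. Cplx3 (ENSMUSG00000039714, chromosome 9, 57447826 to 57454088, minus strand), a complexin that clamps synaptic vesicle release, was at 111, 125 and 191 CPM in the P21 libraries and at 0 in all 4 saline libraries, so the groups did not overlap. Over the groups this was 485 UMIs against 0, at least 44.0-fold higher at P21 when 3 UMIs over the saline libraries are taken as the limit of a count of 0. Among the 4 cocaine libraries, only library 10 had a UMI, at 2.40 CPM. A Cplx3 UMI was found in 11.5% of the P21 cells (10.2% after thinning to 3000 UMIs) and in 0.571% of the P60 cells. In oligodendrocytes, which should lack it, the shares were 0.193% at P21 and 0.0634% at P60, with medians of 5275 and 3626 UMIs.

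At least 2 Cplx3 UMIs were counted in 42 of the 495 P21 cells and in 0 of the 175 P60 cells, which allows a share of up to 1.71% when 3 cells are taken as the limit of a count of 0. This limit of 2 UMIs was chosen after the values were seen. The 42 cells came from all 3 libraries, with 16 cells (8.04%), 10 cells (7.75%) and 16 cells (9.58%). The other 453 cells together held 15 Cplx3 UMIs, so that 15 cells lay just below the limit. Nxph4, a neurexophilin, gave a UMI in 52.4% of the 42 cells and in 1.77% of the others. Ctgf, a matricellular growth factor, did so in 47.6% and 3.09%. The corticothalamic gene Syt6 behaved the other way, with a UMI in 9.52% and 61.6% of cells, and Rprm was at 15.7 CPM against 2205.1 CPM. Foxp2 was found in 38.1% and 65.8%, whereas Hs3st4 (304 and 297 CPM) and Tle4 (257 and 223 CPM) were at like levels in both. The 42 cells had a median of 10492 UMIs against 7578 in the others. Cells with a Cplx3 UMI were also found in Exc_19 and Exc_18, with 8.52% and 5.85% at P21 against 2.57% and 2.85% at P60. The layer 6b list was highest in Exc_21 at P60, at 149 CPM against 19.0 CPM in Exc_20. Since the authors named P21 cells by correlation, the group may differ between ages by this naming, which was not tested. Age differences are also given without the 42 cells, an alternative added after the data were examined.

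The comparison of P21 with P60 asked which genes of these neurons differ between adolescence and adulthood. Fits took the 3 P21 libraries and the 4 saline libraries with at least 10 cells (5, 7, 11 and 12), and differences are log2 values of P60 minus P21. Of 6780 genes that passed the filter on low counts, 475 (7.01%) passed both limits (adjusted p under 0.05, over 1.5-fold) in edgeR's quasi-likelihood test with Benjamini-Hochberg adjustment. Of these 173 (2.55%) were higher and 302 (4.45%) lower at P60. The libraries of the 2 ages did not overlap for 425 of the 475 and for 1274 (18.8%) of all genes tested, and the calls used these same libraries. The 4 cocaine libraries were not used in these calls. The P21 libraries were apart from all 8 adult libraries for 239 of the called genes and for 519 (7.65%) of all genes tested, and nothing is read from the first count, since most called genes were already apart from the saline libraries. With a pair of P21 libraries summed into 1, 297 to 522 genes were called. The count depended on single libraries and was 138 without library 11, the deepest of the saline libraries, and 849 without P21 library 1. In all 7 runs without 1 library 99 genes were called, 48 higher and 51 lower at P60, and 98 of them also without the 42 cells with Cplx3.

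Among genes higher at P60, H2-T23, a nonclassical histocompatibility antigen, was at 19.6 to 30.7 CPM in the saline libraries and at 0 to 3.51 CPM at P21 (difference 3.53 ± 0.70 SE, adjusted p = 0.00266 by edgeR). The gene 6530418L21Rik, annotated as protein-coding, was at 53.7 to 80.6 CPM against 20.5 to 24.8 CPM (1.67 ± 0.28, adjusted p = 0.000605 by edgeR). Wwox, an oxidoreductase, was at 78.5 to 161 CPM against 28.5 to 39.8 CPM (1.64 ± 0.26, adjusted p = 0.00028 by edgeR). Each of these 3 was also higher in all 4 cocaine libraries than at P21 and was called in every run without 1 library. The same held for Sf3a2 (1.87), a splicing factor, Tnnt2 (1.63), a troponin, Dkk3 (1.23, named after its values were seen), a secreted protein of the Dickkopf family, Meis2 (0.98), a homeobox factor, and Vsnl1 (1.00), a neuronal calcium sensor. The libraries lay between 1858.4 and 2081.2 CPM at P60 saline and between 912 and 1083.5 CPM at P21 for Vsnl1, with no overlap.

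Of the 77 nuclear genes of oxidative phosphorylation, all tested, 2 were higher (Ndufv1 at 0.67 and Uqcrc1 at 0.72) and Cyc1 was lower (-1.71), and their median difference was 0.16 against -0.02 over all genes tested, of which 7.01% were called. Hsp90ab1 (0.61) and Hsp90aa1 (0.74) were the called members of 13 tested heat shock proteins.

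Growth cone and cytoskeleton genes serve the extension of neurites. Of 24 tested genes of this list, 9 were lower, 0 were higher and 15 were not called, with a median of -0.20, where 4.45% of all genes tested were lower and 2.55% higher. Marcksl1, an actin-regulating substrate of protein kinase C, was at 0, 1.72, 13.1 and 30.7 CPM in the saline libraries and at 85.4, 123 and 128 CPM at P21 (-3.82 ± 0.49, adjusted p = 0.000169 by edgeR). Stmn2, a microtubule-destabilizing stathmin, was at 1325.3 to 1724.0 CPM and 2125.9 to 2924.9 CPM (-0.69 ± 0.14, adjusted p = 0.00285 by edgeR). Marcks (-1.04) was likewise called in all 7 runs. Gap43 (-0.68), Tubb2b (-2.06), Dpysl2 (-0.64), Dpysl3 (-1.54), Dpysl5 (-1.13) and Basp1 (-0.59) each lost the call without at least 1 library, library 11 among them for all but Dpysl2. Other falls were those of Sparc (-4.76), a matricellular glycoprotein, and Cd24a (-3.94), a surface protein of immature neurons. Sparc had 2 UMIs over the saline libraries and 238 over P21, a ratio of 32.4 with a counting interval of 8.87 to 269.

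**Figure D4:**
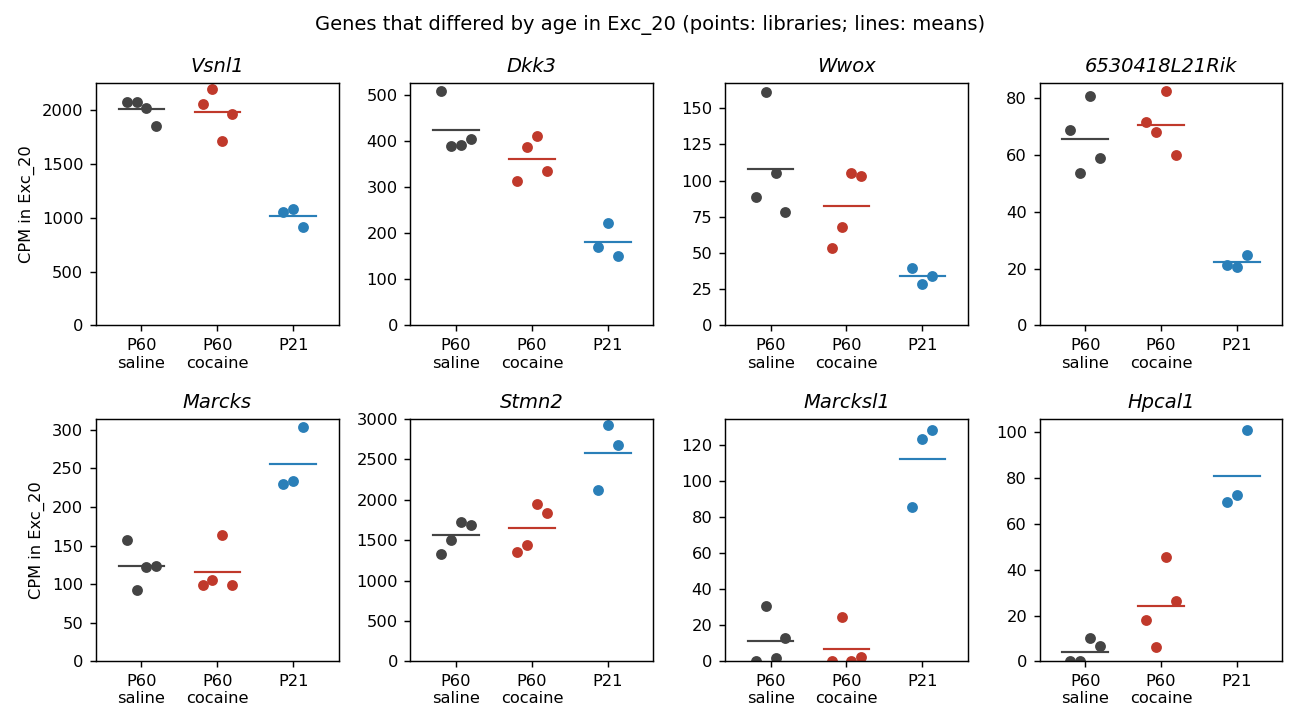
CPM of 8 genes in Exc_20 in each library (points) with group means (lines), for P60 saline (4 libraries), P60 cocaine (4 libraries) and P21 (3 libraries). Vsnl1, Dkk3, Wwox and 6530418L21Rik are higher at P60 and Marcks, Stmn2, Marcksl1 and Hpcal1 higher at P21, with no overlap between ages, also for the cocaine libraries.

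Immediate early genes are transcribed within minutes of neuronal activity. Of 15 tested, 6 were called lower and 0 higher (Junb -3.12, Nr4a3 -2.26, Jun -1.87, Btg2 -1.67, Nr4a2 -1.66 and Dusp1 -1.41), with a median of -1.66, where 4.45% of all genes tested were lower and 2.55% higher. Nr4a2 was at 178 CPM in the 42 cells with Cplx3 against 25.8 CPM in the other P21 cells, and it lost the call without these cells (-0.96, adjusted p = 0.223 by edgeR). Junb kept its call without them (-3.22) and lost it without library 5, 7 or 11. Fos, at 29.5 to 183 CPM in saline and 211 to 311 CPM at P21, did not pass (-1.74 ± 0.47, adjusted p = 0.0734 by edgeR). Junb was at 15.4 to 52.3 CPM in saline and at 131 to 361 CPM at P21, yet at 134 CPM in cocaine library 4, so it was not apart from all adult libraries.

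For chromatin genes that the study names, a list chosen on these samples and so no independent evidence of direction, 4 of 10 tested were lower at P60 and 1 was higher, where 4.45% and 2.55% of all genes tested were. Dnmt3a, a de novo DNA methyltransferase, was at 19.6 to 63.5 CPM and 96.5 to 193 CPM (-1.42 ± 0.29, adjusted p = 0.00511 by edgeR) and was called in every run without 1 library. Tet1, which oxidizes 5-methylcytosine, had 2 UMIs in saline and 105 at P21 (ratio 14.3, counting interval 3.86 to 120) and lost its call without library 11. Yeats4 (-1.60) and Ube2d3 (-0.93) were lower too, and Prmt1, an arginine methyltransferase, was higher (1.10).

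Receptors and channels are given by list, beside the 7.01% of all genes that were called. Of the tested subunits, 0 of 5 of AMPA and kainate receptors, 0 of 3 of NMDA receptors, 0 of 6 metabotropic receptors and Homer genes and 0 of 8 receptors for neuromodulators were called. Among 10 GABA-A receptor subunits, Gabrd, of extrasynaptic receptors, was higher at P60 (1.35), and Gabrg3 (-1.15) and Gabrb2 (-0.63) were lower, each lost without library 11. Cacng3 (0.82), an auxiliary subunit of AMPA receptors counted with the calcium channels, was 1 of 17 sodium and calcium channel genes called, and Kcnab1 (-2.45) was 1 of 26 potassium and HCN channel genes. Of 12 genes of calcium buffers and sensors, Vsnl1 and Hpca (0.68) were higher, and Hpcal1 (-3.45), Necab1 (-1.41) and Pcp4 (-0.66) lower. Pcp4, which modulates calmodulin, was at 4979.8 to 5887.5 CPM in saline and 8196.5 to 9324.9 CPM at P21, with no overlap.

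Other lists covered peptides, vesicle release, axon guidance, cholesterol synthesis and layer identity, and their counts stand beside the 7.01% of all genes that were called. Of 13 tested neuropeptides and granins 1 was higher (Scg5, 0.68) and 1 lower (Sst, -1.78), of 20 genes of vesicle release 2 were lower (Cplx3 and Sv2a, -0.60), of 19 axon guidance genes 2 were lower (Sema5a, -1.06, and Efnb3, -0.92), and of 19 genes of cholesterol synthesis 2 were higher (Sc4mol, 0.73, and Fdps, 0.74) and 1 lower (Insig1, -1.25). Of 22 tested transcription factors of cortical layers, 1 was higher (Id2, 0.65) and 3 were lower, among them Tbr1 (-0.67) and Nr4a2, whose call was lost without the cells with Cplx3, whereas Foxp2 differed by -0.08 ± 0.20 and Rprm by -0.11 ± 0.15. Of the other genes the study names, likewise chosen on these samples, 3 of 11 tested were lower (Marcksl1, Hs3st5 at -2.21 and Kif5c at -0.75) and Wwox was higher. Of the 33 genes that set Exc_20 apart from its nearest clusters, all tested, Bhlhe41 (1.06) was higher and Insig1 and Dpysl2 were lower. Since the 33 were chosen as high in P60 cells that also enter this comparison, the choice favours higher values at P60, and nothing is read from these counts.

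Markers of other cell types were counted in the same cells. In Exc_20 the sum of 6 oligodendrocyte markers was 7.68 to 172 CPM in the saline libraries and 132, 278 and 795 CPM at P21. That of 6 microglial markers was 7.68 to 29.2 CPM and 6.83 to 304 CPM, that of 6 endothelial markers 12.0 to 39.3 CPM and 38.7 to 164 CPM, and that of 8 inhibitory markers 0 to 25.7 CPM and 34.1 to 65.5 CPM. The ages overlapped for the oligodendrocyte, microglial and endothelial lists and not for the inhibitory list. Of the defining markers, Mog, Cx3cr1, Flt1 and Pdgfrb were at 0 in the saline libraries and all were detected at P21. The astrocyte list, at 629 to 844 CPM and 1275.3 to 1521.6 CPM, was almost wholly Slc1a2, a glutamate transporter (670 CPM over P60 cells), while Gja1 was at 2.06 and 2.25 CPM. The other excitatory neurons showed the same direction, with 61.2 to 138 CPM and 292 to 621 CPM for the oligodendrocyte list. With only the cells also classed as excitatory, 446 genes were called, 431 of them among the 475, and the part of these markers in the other differences was not tested.

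The other excitatory neurons differed between the ages as well. The called genes had a median of 0.85 (higher at P60) and -1.14 (lower) in Exc_20, and the same genes had 0.61 and -0.71 in the other excitatory neurons of these libraries. The genes were chosen by their difference in Exc_20, which favours the larger medians there. A test of the difference itself, as the interaction of age and cluster with the library as a block, called 88 of 12468 genes (0.706%). Of these 24 (0.192%) had the higher value of P60 minus P21 in Exc_20, and 64 (0.513%) the lower, a split of 36 and 56 with DESeq2 size factors. Without library 11 the count was 43, without P21 library 1 it was 53, and without the 42 cells with Cplx3 it was 46, 45 of them among the 88.

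Hpcal1 (ENSMUSG00000071379, chromosome 12, 17697620 to 17798732, plus strand), a hippocalcin-like calcium sensor, was called in every run without 1 library. In Exc_20 it was at 0, 0, 10.3 and 6.54 CPM in saline libraries 5, 7, 11 and 12 and at 69.6, 72.8 and 101 CPM at P21, with no overlap. In the other excitatory neurons of the same libraries it was at 52.0, 54.4, 76.6 and 141 CPM and at 81.9, 91.6 and 87.8 CPM, and the ages overlapped. The difference of differences was -3.44 ± 0.39 (adjusted p = 1.8e-14 by edgeR), and it was -2.61 (adjusted p = 1.79e-05) without the cells with Cplx3. These cells held 356 CPM of Hpcal1 against 45.7 CPM in the other P21 cells. In the 4 cocaine libraries it was at 6.18 to 45.7 CPM.

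Among named genes, the interaction was also negative, and called without the cells with Cplx3 too, for Necab1 (-1.76), a calcium-binding protein, Cidea (-4.24), a lipid droplet protein, Dpysl3 (-1.35), Fos (-0.77) and Npas4 (-1.32), an activity-dependent transcription factor. The calls of Dpysl3, Fos and Npas4 were lost without library 11. Cidea had 2 UMIs in the saline libraries and 91 at P21, a ratio of 12.4 (counting interval 3.33 to 104). Ass1, the argininosuccinate synthase of arginine synthesis (named, like Igfbp5 and Itpka, after its values were seen), was higher at P60 in both, at 61.8 to 98.2 CPM against 17.6 to 34.1 CPM in Exc_20 and 72.6 to 101 CPM against 8.78 to 10.8 CPM in the others (-1.86 ± 0.26, adjusted p = 2.63e-09 by edgeR). The call of Cplx3 (-11.93 as fitted) was lost without the cells chosen by its UMIs, which follows from that choice. Trp53i11 (-3.04), Kcnab1 (-2.87) and Igfbp5 (-1.75) lost the call without these cells too, with -1.82, -1.36 and -0.55 remaining, and so did Tmem40 (-10.01 as fitted, then -8.19). All of these genes were higher in those cells than in the other P21 cells, with Kcnab1 at 215 against 11.7 CPM and Igfbp5 at 330 against 25.8 CPM.

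In the other direction, some genes of layer 6 changed little in Exc_20 and were lower at P60 in the pooled other neurons. The corticothalamic markers as a list were not steady in Exc_20. Of 9 tested, 3 were called lower at P60 there (Syt6 -0.73, Tbr1 -0.67 and Hs3st4 -0.63) and 0 higher. The list median was -0.5, where 4.45% of all genes tested were lower and 2.55% higher. Foxp2 was at 10.6 to 16.9 CPM in the others at P60 saline and at 25 to 35.2 CPM at P21, a difference of -1.18 against -0.08 in Exc_20 (interaction 0.95 ± 0.18, adjusted p = 9.06e-05 by edgeR). Rprm (0.69) and Nfia (0.71) showed the same, and so did Hist1h2bc, a histone, with -2.09 against 0.17 (interaction 2.16). The 2 nearest clusters, which carry Foxp2, Rprm and Nfia, made up 13.8% of excitatory neurons at P21. In P60 saline they made up 7.52% on average over 6 libraries, of which the fits took 4. The part of these shares in the falls of the pooled other neurons was not tested. Against the 2 nearest clusters alone the difference was 0.25 ± 0.18 for Foxp2, 0.00 ± 0.11 for Rprm and 0.28 ± 0.22 for Hist1h2bc, none of them called. The call of Nfia was lost without library 7 or P21 library 1, and that of Meis2 without P21 library 1. Those of 6530418L21Rik and Cacng3 were lost without library 11. Genes that were themselves higher at P60 in Exc_20 and near 0 in the others were 6530418L21Rik (1.67 and 0.16), Itpka (1.59 and 0.09), an inositol trisphosphate kinase, Cacng3 (0.82 and -0.15) and Meis2 (0.98 and 0.05). In the 2 nearest clusters these genes were at 0.84, 0.63, 0.58 and 0.80 in the same order, and none of the 4 was called against them. Meis2 was at 295 to 362 CPM in saline and 136 to 203 CPM at P21 in Exc_20, with no overlap, and at 155 to 167 CPM and 153 to 180 CPM in the others.

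Against the 2 nearest clusters, 2 of 8917 genes (0.0224%) were called, Cplx3 (-8.80 as fitted) and Hpcal1 (-2.37 ± 0.48, adjusted p = 0.012 by edgeR), and 354 were at an unadjusted p below 0.05. Hpcal1 was at 16.2 to 45.5 CPM in the nearest clusters at P60 saline and 40.0 to 58.1 CPM at P21. It lost the call without library 7 or library 12. Without the cells with Cplx3, which were taken out of Exc_20 only, 0 genes were called. For Cplx3 this follows from the choice of the cells. Other settings called 1 to 6 genes, with 6 without P21 library 2 and 4 with DESeq2 size factors.

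The comparison of cocaine with saline asked whether withdrawal from cocaine changes expression in these neurons. It could use libraries 8 (cocaine) and 5 and 7 (saline) at 48 h and libraries 9 and 10 (cocaine) and 11 and 12 (saline) at 15 days. Over both phases 39 of 3307 genes (1.18%) were called, all higher with cocaine, and the libraries did not overlap for 6 of them (Junb, Glrx2, Dlat, Rundc3a, Snhg4 and Klc1), against 5.65% of all genes tested. The count was 1 without library 11, 7 without library 10, 10 without library 9 and 77 without library 12, and 0 genes were called in every run. DESeq2 called 0, with 82 genes at an unadjusted p below 0.05 against 232 in edgeR's test. At 15 days, in a fit of all 8 adult libraries, 82 of 3962 genes (2.07%) were called, 81 (2.04%) higher and S100a10 (0.0252%) lower with cocaine. The count was 20 without library 11, 23 without library 10 and 131 without library 12. DESeq2 called 2. All 39 genes of the first comparison were among the 82 of the second, which shares its libraries.

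The called genes at 15 days included Cck, the neuropeptide cholecystokinin, which was at 260 and 346 CPM with cocaine and at 72.0 and 39.3 CPM with saline at 15 days (2.31 ± 0.25, adjusted p = 2.73e-14 by edgeR). At 48 h it was at 12.4 CPM with cocaine in library 8 and at 29.5 and 30.7 CPM with saline, so the difference had the other sign there. Nrgn, neurogranin, was at 1297.4 and 1327.8 CPM against 547 and 419 CPM (1.43 ± 0.15, adjusted p = 2.73e-14 by edgeR). Cyc1, a subunit of respiratory complex III, was at 397 and 322 CPM against 78.9 and 144 CPM (1.92 ± 0.23), and Tomm20, an import receptor of mitochondria, at 132 and 134 CPM against 32.6 and 26.2 CPM (2.12 ± 0.34). Together with Gde1, Npdc1 and Chst1, named for this reason, these 4 were the 7 genes called in all 8 runs without 1 library. Of the lists, set beside the 2.07% of all genes that were called, oxidative phosphorylation had 1 of 77 genes called (Cyc1, list median 0.01 against 0.00 over all genes tested), and immediate early genes 1 of 6 (Junb, 1.79; 52.3 and 22.3 CPM with saline, 101 and 98.4 CPM with cocaine).

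The same libraries differed in the other excitatory neurons. Cck was there at 3756.2 and 3168.1 CPM in libraries 9 and 10 and at 465 and 1693.5 CPM in libraries 11 and 12, and Cyc1 at 308, 294, 78.3 and 172 CPM in the same order. The P21 libraries, which had no cocaine, were at 184 to 431 CPM of Cyc1 in Exc_20 and at 143 to 241 CPM of Tmem93, against 149 and 169 CPM of Tmem93 in cocaine libraries 10 and 9. Over the 82 genes called at 15 days the median difference was 1.17 in Exc_20 and 0.80 in the other neurons, and over the 39 genes of both phases 1.23 and 0.69, where 0 of the 39 were called. Here too the choice of genes favours the larger medians in Exc_20. The interaction of cocaine and cluster was fitted over both phases together. It called 0 of 12113 genes in edgeR's test, with 348 at an unadjusted p below 0.05, and no other tool was run. It called 1 without library 8, 1 without library 11 and 0 without each of the other libraries. No response to cocaine over both phases was therefore shown to differ between Exc_20 and the other excitatory neurons. The interaction at 15 days alone was not fitted, and what else differs between these libraries was not tested.

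**Figure D5:**
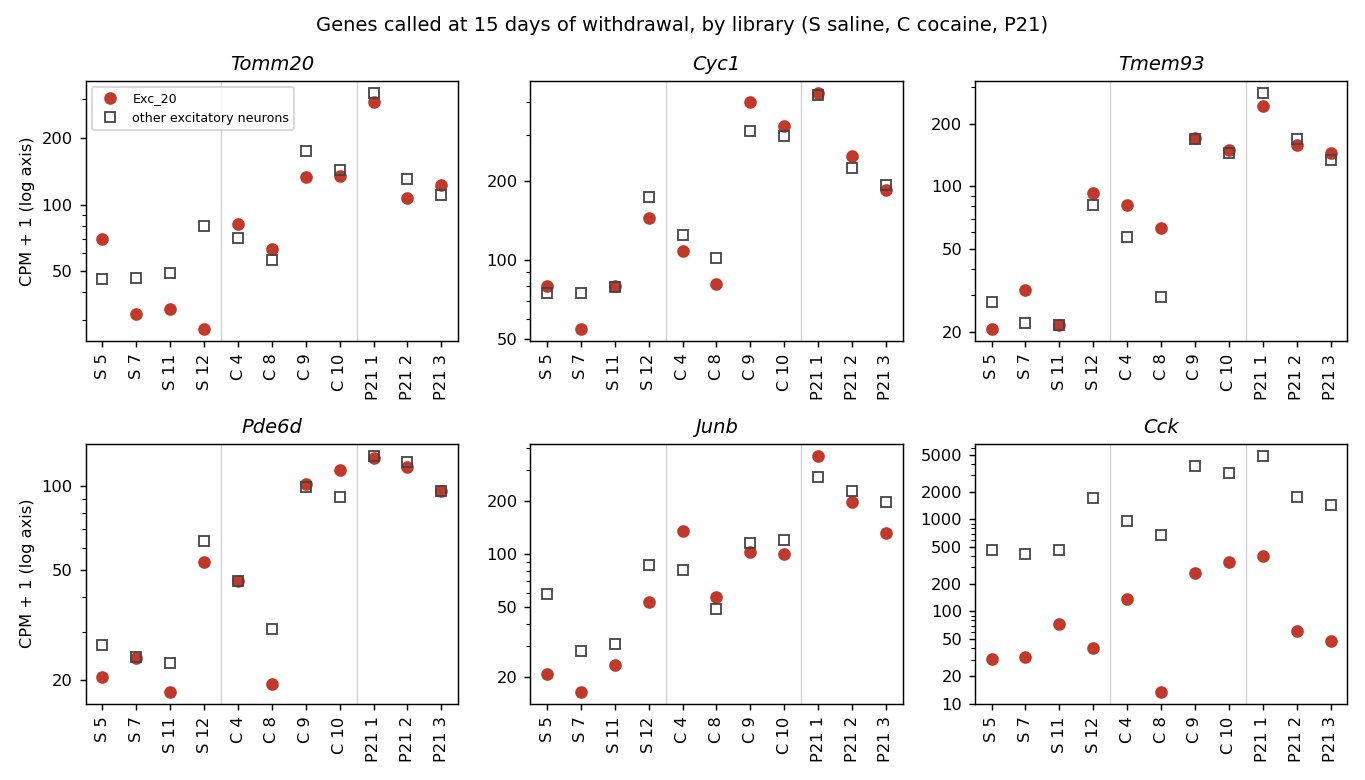
CPM + 1 on a log axis of 6 genes called at 15 days of withdrawal, in Exc_20 (circles) and the other excitatory neurons (squares) of each library; S marks saline, C cocaine and P21 the younger mice, with library numbers. Cyc1 is at 397 and 322 CPM in cocaine libraries 9 and 10 and at 78.9 CPM in saline library 11 in Exc_20, and the other neurons follow the same order with 308, 294 and 78.3 CPM.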

How the data were processed

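Cells of the PFC were captured with the 10X Chromium platform. The authors aligned reads to mm9 (NCBIM37) with Cell Ranger, and the deposited values are raw UMI counts per gene and cell without normalization. The deposited table of cells gives class, cluster and the share of mitochondrial UMIs as a fraction between 0 and 1. The authors removed likely double droplets (the cells with most genes) and cells rich in mitochondrial reads before deposit and clustered with Seurat 2.1.0. No doublet caller was run here and no further cells were removed. Members and gene lists were chosen with earlier results of these data known.

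The 13 mitochondrial and 142 ribosomal protein genes (8.88% of the UMIs of Exc_20) were left out, and CPM refer to the other 25990 of 26145 genes. UMIs were summed per library and cluster, and libraries with at least 10 cells of Exc_20 were kept. In R 4.3.3, edgeR 4.0.16 (filterByExpr, TMM, robust quasi-likelihood fit, Benjamini-Hochberg over all genes tested) compared P21 with saline P60, cocaine with saline (phase as a term), and, with the library as a block, age or treatment by cluster. Calls needed an adjusted p below 0.05 and over 1.5-fold. The SE of a log2 difference was derived as its absolute value divided by the square root of the F statistic of its test. Shares were compared by exact permutation with numpy 2.4.6, and scipy 1.17.1 gave the exact binomial intervals. Cells were thinned to 3000 UMIs for shares of cells with a UMI. Scripts were tested on simulated data.

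Named genes were all genes of the lists, the 12 largest rises and falls per comparison among called genes whose libraries did not overlap, and the 15 highest and 8 lowest ratios to other excitatory neurons (10 and 10 for the nearest clusters); others are marked. Some members of the lists are not reported here. Alternatives were DESeq2 1.42.0 or its size factors, no filter on low counts, at least 20 cells, Bonferroni adjustment, no fold limit, kept mitochondrial and ribosomal genes, equal cell numbers, all P60 libraries, other denominators, and each library left out. Added after the data were examined were the runs without cells of 2 or more Cplx3 UMIs, with cells also classed excitatory, with P21 libraries summed in pairs, and the interaction of cocaine and cluster. Positions come from the GENCODE annotation of NCBIM37.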

Additional observations from a re-analysis of the deposited data

Results flagged for a closer look

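Among 154 groups of 4 or 6 libraries, 9 held a library far from the others by Dixon's criterion, and chance alone gives about 1 in 20. Only the shares of Exc_20 had groups of 6, and all other groups had 4. Library 11 held 582941 summed UMIs of Exc_20, the most of the saline libraries. Basp1 was lowest at 463 CPM in cocaine library 8, Marcks highest at 164 CPM in cocaine library 9, Marcksl1 highest at 24.7 CPM in cocaine library 8 and Efnb3 highest at 98.4 CPM in cocaine library 4. Dnmt3a was lowest at 19.6 CPM in saline library 12. Cited2 and Trp53i11 were both at 5.15 CPM in saline library 11 and at 0 in the other saline libraries, and Cplx3 was at 2.40 CPM in cocaine library 10 and at 0 in the other cocaine libraries.

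The age difference (log2 of P60 minus P21) differed between Exc_20 and the other excitatory neurons by a test of the interaction. The 24 genes given here are the 12 largest values in each direction among called genes whose libraries did not overlap, and other genes were called too. It was the higher in Exc_20 for Hist1h2bc (2.16), Igfbp4 (1.60), 6530418L21Rik (1.48), Prss23 (1.40), Sebox (1.36), Tbata (1.34), Foxp2 (0.95), Cacng3 (0.95), Skil (0.91), Meis2 (0.90), Syt6 (0.89) and Cxcl12 (0.85). It was the lower for Hpcal1 (-3.44), Trp53i11 (-3.04), Trh (-3.15), Kcnab1 (-2.87), C530008M17Rik (-2.85), Cidea (-4.24) and S100b (-4.21). Several of these had few UMIs in the saline libraries of Exc_20, with 1 for S100b, 2 each for Trh, Cidea and C530008M17Rik and 3 for Trp53i11. Their ratios of P21 to saline had counting intervals of 1.89 to 451, 2.01 to 64.5, 3.33 to 104, 2.58 to 81.3 and 2.74 to 40.8 in this order. Genes at 0 in all saline libraries of Exc_20 had fitted values of -11.93 (Cplx3), -10.83 (Thrsp), -10.01 (Tmem40), -9.68 (Cgn) and -9.47 (Eng), which are no bounds. In UMIs, Thrsp was at least 3.18-fold, Tmem40 at least 4.36-fold and Eng at least 3.09-fold higher at P21, whereas Cgn reached 31 UMIs there, at least 2.81-fold higher. Of these 24 genes, Hist1h2bc, Igfbp4, Foxp2, Skil, Hpcal1, Trp53i11, Kcnab1, Cidea and Cplx3 were called in 7 of 7 runs without 1 library. Trh, Eng and C530008M17Rik were called in 1 of 7, Cgn and Tbata in 2, Prss23, Syt6 and Cxcl12 in 4, Sebox in 5 and the others in 6. Against the 2 nearest clusters, Cplx3 (-8.80 as fitted) and Hpcal1 (-2.37) differed.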

How the results depend on the processing

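For P21 against P60, leaving out single libraries gave 138 to 849 called genes in place of 475. The count was 56 with at least 20 cells (library 11 is then the only saline library and is assumed to vary like the P21 libraries), 36 with Bonferroni adjustment, 310 with DESeq2, 145 with equal numbers of cells, and 297 with P21 libraries 2 and 3 summed. For cocaine over both phases, single libraries gave 1 to 77 in place of 39, at least 20 cells 150 (library 11 alone against 9 and 10), Bonferroni 9, DESeq2 0 and equal numbers 11. At 15 days these were 20 to 131 in place of 82, 150, 33 and, with DESeq2, 2. The interaction of age and cluster gave 43 to 91 in place of 88 by single libraries, 33 with Bonferroni adjustment and 46 without the cells with Cplx3. With DESeq2 size factors 36 of 92 calls were higher in Exc_20 against 24 of 88. Against the nearest clusters the counts were 1 to 6 in place of 2, 4 with DESeq2 size factors, 1 with at least 20 cells and 0 without the cells with Cplx3. For the interaction of cocaine and cluster, single libraries gave 0 to 1 in place of 0. Fewer cells and libraries enter several of these runs; otherwise the cause was not tested. The share of Exc_20 kept its direction and side of the threshold in every run for P21 against P60 (6.98 to 7.36 points by single libraries). For cocaine it ranged from -0.527 to 0.00126 points, the last without library 1. Single genes were recomputed where they were called and named by size or list, so not for every list member. None of the 72 for P21 against P60, 9 and 15 for cocaine, and 36 and 2 for the interactions with age changed sign, and 326 of 1392, 49 of 130, 45 of 225, 137 of 540 and 5 of 30 values lost the call. With no filter on low counts 671, 56, 57, 80 and 3 genes were called in the order above.

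At least 5 cells in place of 10 keeps the same libraries and was not run. No paired analysis was possible because library numbers run from 1 to 12 through the adult groups and the P21 numbers belong to other animals. Adult libraries of 11 to 14 cells limit what could be detected, and no gene was tested between cocaine and saline at maintenance.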
